A study of Homo sapiens with 6 samples.

Results

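The genes described here build the DNA replication machinery, from the complexes that mark and license origins to the enzymes that finish the lagging strand at the fork. They were taken by symbol from a list of 58 genes, ordered by the step at which each acts. All 58 were among the 21850 genes of the count table, and all 58 were among the 13971 that passed the filter on low counts. The cells were MM.1S, a single established cell line from human multiple myeloma, a cancer of plasma cells. They were infected with a lentivirus carrying either a scramble short hairpin (shNT, 3 libraries) or a hairpin against PRKCN, the kinase PKD3 (shPRKCN, 3 libraries), and RNA was sequenced 72 h later, which the labels also give as day 3. All 6 libraries thus came from infected cells and differed in the hairpin. The labels do not say whether libraries of a group came from separate cultures, so p-values measure the spread between these libraries only.

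Before a cell copies its DNA, the origin recognition complex, CDC6 and CDT1 load the ring-shaped MCM2-7 helicase onto origins while cyclin-dependent kinase activity is low. In S phase, CDC45 and GINS join the ring, the helicase starts to unwind, and polymerases, the sliding clamp and its loaders follow the fork. Many of these genes are transcribed most around the start of S phase under E2F factors, so in bulk RNA a smaller share of cells in S phase and less RNA per cell cannot be told apart.

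Library totals ran from 35625564 to 37730003 counts. PRKCN, listed by its current symbol PRKD3 (GRCh38.p14, chromosome 2, 37250502 to 37324833), had 197, 202 and 189 FPKM with shNT and 84.8, 76.4 and 83.6 with shPRKCN, 41.0% of the control level by CPM. FPKM, reads scaled to gene length and library total, puts genes of different length on one scale. All 9 plasma cell markers were listed, with a summed level of 5826 to 5952 FPKM in shNT and 5298 to 5525 in shPRKCN libraries, and most of that sum is the joining chain JCHAIN (4136 and 4236 FPKM on average). Of the other markers IRF4, XBP1, TNFRSF17 and SLAMF7 were called lower, at 27.7%, 41.1%, 45.7% and 51.2% of the control level by CPM. PRDM1 stood at 68.7%, MZB1 at 85.5%, CD38 at 99.1% and SDC1 at 113%, none of them called. Of T cell markers 4 of 5 were listed and summed to 7.76 to 8.64 FPKM in shNT and 20.4 to 22.8 in shPRKCN libraries, nearly all of it CD3E, while CD3D and CD3G had at most 1 count in any library. Myeloid markers (4 of 5 listed) summed to 0.445 to 1.26 against 2.46 to 2.70 FPKM. Most of that was S100A9 (0.657 and 2.47 FPKM on average), while CD14, LYZ and CSF1R had at most 9 counts in any library. Stromal markers (3 of 5 listed) summed to at most 0.0356 FPKM. The 1 listed erythroid marker of 5, HBB, had 3.45 to 6.12 against 1.49 to 1.75 FPKM. The part of these shifts in the results was not tested.

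Promoter sequences are shown first, because the textbook regulator of these genes, E2F, reads a short word near their starts. RefSeq promoter windows (GRCh38.p14, 250 bases before to 50 bases after a start) were matched by symbol for 49 of the 58 genes, not for MCM4, MCM5, GINS4, RECQL4, POLD3, DSCC1, DNA2, RPA2 and RPA3. Each window was searched on both strands for the 4 E2F-type words TTTCCCGC, TTTCGCGC, TTTGCCGC and TTTGGCGC. In the stretches below capitals mark the words, written on the gene's own strand, so that a word on the opposite strand reads as its reverse complement. They show the licensing factor CDT1, ring subunits whose match lies before their most upstream start, the clamp PCNA, the initiating polymerase POLA1 and the ligase LIG1, with ORC3 as a gene that carries the same word and did not fall.
CDT1 (chr16:88803728-88803787, plus strand): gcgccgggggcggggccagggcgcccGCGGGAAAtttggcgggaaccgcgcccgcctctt
MCM3 (chr6:52284883-52284942, minus strand): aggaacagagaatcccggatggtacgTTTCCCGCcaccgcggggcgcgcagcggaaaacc
MCM6 (chr2:135876496-135876621, minus strand): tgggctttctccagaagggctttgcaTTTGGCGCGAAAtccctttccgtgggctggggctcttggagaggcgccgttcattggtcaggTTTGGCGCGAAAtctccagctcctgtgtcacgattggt
MCM7 (chr7:100101551-100101610, minus strand): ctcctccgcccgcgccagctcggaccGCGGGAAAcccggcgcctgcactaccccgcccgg
PCNA (chr20:5126648-5126707, minus strand): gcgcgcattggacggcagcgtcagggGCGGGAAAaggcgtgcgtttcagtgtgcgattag
POLA1 (chrX:24693755-24693814, plus strand): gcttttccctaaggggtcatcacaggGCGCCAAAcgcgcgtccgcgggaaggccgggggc
LIG1 (chr19:48170425-48170484, minus strand): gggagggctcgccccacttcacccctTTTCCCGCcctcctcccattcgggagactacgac
ORC3 (chr6:87590097-87590134, plus strand): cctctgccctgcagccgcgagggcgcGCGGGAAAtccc

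In MCM6 the 4 matches form 2 overlapping pairs, TTTGGCGC on one strand and TTTCGCGC on the other, the same 12 capitals each time. MCM7 has a second stretch right before its start, chr7:100101398-100101432 on the minus strand, which reads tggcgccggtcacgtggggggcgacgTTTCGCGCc. Some genes have several windows, and a gene was counted when any of them held a word. By this count an E2F-type word stood in 21 of the 49 genes (42.9%), against 6.74% of the 11035 tested genes with a window. Of all 35116 RefSeq windows taken singly, 3.31% held one.

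As a group the replication genes fell. Signed differences are log2 fold changes of shPRKCN over shNT from edgeR's quasi-likelihood test on the counts, with their standard error (SE) and Benjamini-Hochberg adjustment over all 13971 genes. Of the 58 genes, 52 were lower at an adjusted p under 0.05 (89.7%, against 27.8% of all genes tested) and 0 were higher (against 26.5% of all genes tested). The 6 that did not pass were ORC3, ORC4, ORC5, POLD2, POLE3 and RPA2. A gene was called when its log2 fold change also lay beyond 0.58. Of the 58, 28 were called lower (48.3%, against 10.6% of all genes tested) and 0 higher (against 6.15%). The median log2 fold change was −0.57, with a range of −1.21 to 0.09, beside a median of 0.0012 over all genes tested.

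Groups seldom overlapped. In 52 of the 58 genes the highest shPRKCN library was below the lowest shNT library (89.7%, against 29.8% of all genes tested). ORC5 was the 1 gene whose shPRKCN libraries all lay above (against 4055 of all 13971 genes tested), and 5 genes overlapped (against 5758). The 58 genes together took 0.378%, 0.376% and 0.379% of all counts with shNT and 0.265%, 0.267% and 0.267% with shPRKCN. Set against the shNT mean, the median gene stood at a log2 ratio of 0.0031, −0.013 and 0.0043 with shNT and −0.57, −0.58 and −0.56 with shPRKCN, so that no library stood apart within its group. Of 15 genes whose log2 fold change fell by between 0.50 and 0.66, 8 lay beyond the fold limit of 0.58 and were called and 7 fell short of it, so which genes were called in the middle of the list depends on a narrow margin. Under glmTreat, which tests against the fold limit itself, 11 of the 28 calls were lost (ORC6, MCM7, CDC7, WDHD1, POLA1, PRIM1, POLD3, RFC3, RFC4, RNASEH2A and CHAF1A). With limma on log2(FPKM + 1), 10 were lost, TICRR and these genes other than PRIM1 and RNASEH2A.

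Medians differed by step. The median log2 fold change was −0.86 for the 3 licensing factors, −0.78 for the 4 genes of lagging strand maturation and −0.75 for the 10 genes of helicase activation. It was −0.65 for fork protection and coupling, −0.59 for the clamp and its loaders, −0.58 for polymerase α-primase and −0.50 for the MCM2-7 ring. The medians nearest 0 were those of chromatin assembly and histone mRNA (−0.47), polymerase ε (−0.40), polymerase δ (−0.37), the single-strand binding protein RPA (−0.15) and the origin recognition complex (−0.11). Differences between steps were not tested, since a step holds 3 to 10 genes and within most steps single genes spread widely.

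**Figure D1:**
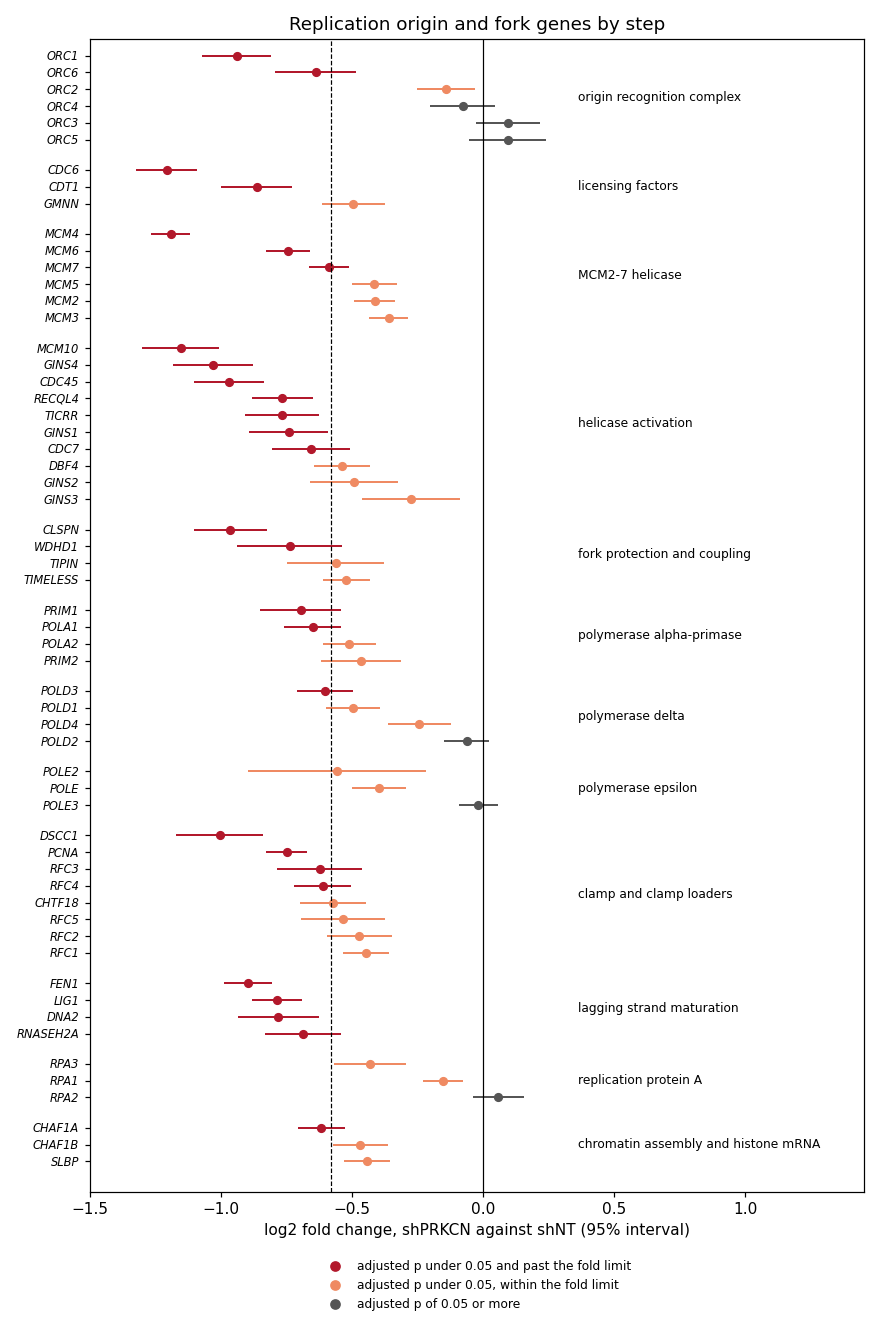
Log2 fold change of each of the 58 genes (x axis, shPRKCN against shNT), with genes grouped by step on the y axis. Points are edgeR estimates coloured by the test, bars are 95% intervals, the solid line marks 0 and the dashed line the lower fold limit. CDC6, MCM4 and MCM10 lie farthest to the left, and ORC3, ORC5 and RPA2 lie right of 0.

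Origin recognition split within one complex. ORC1, the subunit whose amount rises and falls with the cell cycle, had 10.9, 10.9 and 10.5 FPKM with shNT and 5.34, 5.51 and 6.24 with shPRKCN. The groups lay far apart, and ORC1 fell by 0.94 on the log2 scale (SE 0.065, adjusted p = 1.1e-20). ORC6, the smallest subunit, fell by 0.64 (SE 0.077), from 12.2 to 7.92 FPKM on average. ORC5, an ATPase-family subunit of the stable core, had 4.55, 4.78 and 4.73 FPKM against 4.92, 5.20 and 5.09, with a log2 fold change of 0.09 (SE 0.073, adjusted p = 0.28). Its groups just failed to touch, and the change did not pass the test. The other core subunits ORC3 and ORC4 had log2 fold changes of 0.09 (SE 0.060) and −0.08 (SE 0.061) with overlapping libraries. ORC2 was lower by a small amount, 8.63 to 7.92 FPKM on average (log2 fold change −0.14, SE 0.055, adjusted p = 0.024). It was not past the fold limit, and its adjusted p rose above 0.05 without shNT replicate 1 (adjusted p = 0.12), shPRKCN replicate 1 (0.053) or shPRKCN replicate 3 (0.10). The same held with DESeq2 (0.052), library-size scaling (0.055), no filter on low counts (0.051) and unfiltered limma with either pseudocount (0.051).

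Of the 3 licensing factors, CDC6 and CDT1 were called lower, where 10.6% of all genes tested were. CDC6, the ATPase that helps load the MCM ring, had 9.99, 11.3 and 11.0 FPKM with shNT and 4.74, 4.50 and 4.92 with shPRKCN. These levels did not overlap, and CDC6 (chromosome 17, 40287879 to 40304657) had the lowest log2 fold change of the 58 genes, −1.21 (SE 0.058, adjusted p = 1.4e-28). CDT1, which brings the ring to the origin, had 11.2, 11.8 and 11.0 FPKM against 6.16, 6.64 and 6.13, a fall of 0.86 on the log2 scale. GMNN, the geminin protein that holds CDT1 back after licensing, had 9.17, 9.02 and 9.40 FPKM against 6.88, 5.90 and 7.06. It also fell (log2 fold change −0.50, SE 0.060), but not past the fold limit. The ratio of CDT1 to GMNN in FPKM was 1.23 ± 0.0678 (SD, n = 3) in shNT and 0.963 ± 0.142 (SD, n = 3) in shPRKCN libraries, without overlap (2-sided exact permutation test, p = 0.1, the smallest that 3 libraries against 3 allow). This ratio, and that of CHTF18 to DSCC1 further on, were picked after the values were seen. They come from a longer set of ratios of paired genes, and every ratio in that set was without overlap between groups. All 3 genes carry an E2F-type word.

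The 6 subunits of the MCM2-7 ring, which work as one hexamer, all fell, by unequal amounts. MCM4 had 73.3, 73.4 and 71.5 FPKM with shNT and 32.3, 32.6 and 31.9 with shPRKCN. It kept 43.8% of its control level by CPM, a log2 fold change of −1.19 (SE 0.036, adjusted p = 9.1e-40). MCM6 followed with 38.4, 35.8 and 36.7 FPKM against 22.2, 22.7 and 22.2, a log2 fold change of −0.74 (SE 0.041). MCM7 had 66.0, 63.7 and 67.3 FPKM against 44.0, 44.7 and 44.0, a log2 fold change of −0.59 (SE 0.037). It lay so near the fold limit that it was not called without shNT replicate 3, shPRKCN replicate 1 or shPRKCN replicate 3 (−0.57, −0.58 and −0.57), or with library-size scaling (−0.57).

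The other ring subunits fell by less. MCM2 had 46.0, 45.4 and 47.5 FPKM with shNT against 34.5, 35.9 and 35.3. MCM5 had 27.0, 26.8 and 26.6 FPKM against 19.7, 20.8 and 20.6. MCM3 had 71.1, 73.5 and 71.0 FPKM against 55.5, 57.9 and 56.7. Each kept 75.0% to 77.9% of the control level by CPM, with log2 fold changes of −0.41, −0.41 and −0.36 that passed the test and not the fold limit. Of MCM2's exon bases 23.6% overlap other annotated genes, and the strand setting of the counting is not given in the sources used here.

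The makeup of the ring's mRNA pool shifted with this. As a percent of the summed FPKM of the 6 subunits, MCM4 took 22.7% ± 0.381 (SD, n = 3) in shNT and 15.3% ± 0.207 (SD, n = 3) in shPRKCN libraries. MCM3 went from 22.4% ± 0.543 to 26.9% ± 0.172 (SD, n = 3 each), and MCM2 from 14.5% ± 0.314 to 16.7% ± 0.0968. In shNT cells MCM4 was thus level with MCM3 as the most abundant subunit mRNA per length (72.7 and 71.9 FPKM on average), whereas in shPRKCN cells it stood below MCM3, MCM7 and MCM2. The share of MCM7 overlapped between groups (20.5% and 21.0%). The summed level of the ring was 65.9% of the control.

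**Figure D2:**
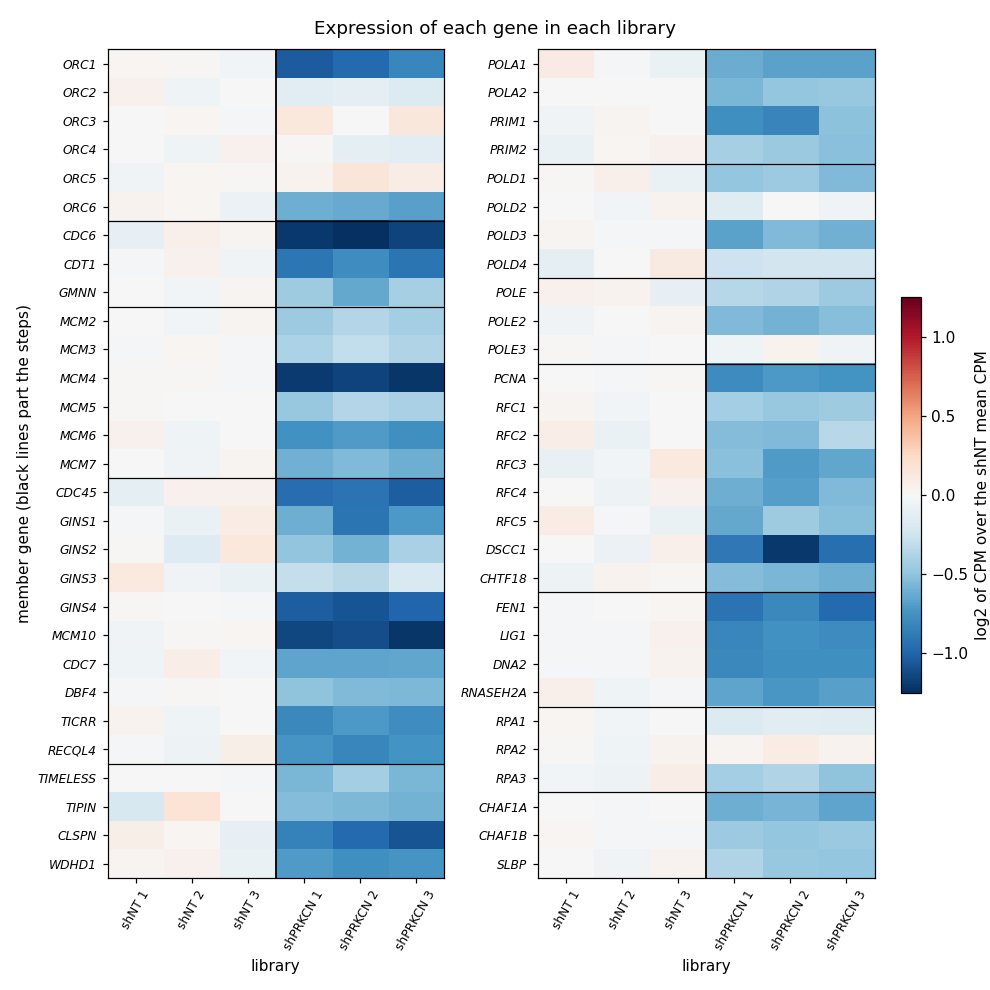
Heat map of the 58 genes (rows, black lines part the steps) in the 6 libraries (columns), coloured by log2 of CPM over the mean CPM of the shNT libraries. Nearly all rows turn blue (lower) in all 3 shPRKCN columns, darkest for CDC6, MCM4, MCM10, GINS4 and DSCC1, while ORC3, ORC5, RPA2 and POLE3 stay near white or turn pale red.

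The mRNAs of helicase activation genes were lower throughout, with 10 of 10 genes lower at an adjusted p under 0.05 (against 27.8% of all genes tested). Of these, 7 were called (against 10.6%). MCM10, which is needed for the assembled helicase to start unwinding, had 5.87, 6.14 and 6.14 FPKM with shNT and 2.80, 2.81 and 2.66 with shPRKCN. With no overlap, its log2 fold change was −1.15 (SE 0.073, adjusted p = 1.9e-22). CDC45, the helicase cofactor, went from 13.8 to 7.15 FPKM on average (log2 fold change −0.97). TICRR (treslin) and RECQL4, both linked to the loading of CDC45 and GINS, had log2 fold changes of −0.77 each. CDC7, the kinase that phosphorylates the MCM ring, had −0.66, and its activator DBF4 had −0.54, just short of the fold limit.

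The 4 GINS subunits form one complex and differed. GINS4 had the lowest log2 fold change (−1.03, SE 0.075), followed by GINS1 (−0.74) and GINS2 (−0.49). GINS3 had 6.19, 5.53 and 5.38 FPKM with shNT and 4.72, 4.50 and 5.10 with shPRKCN, a log2 fold change of −0.27 (SE 0.094, adjusted p = 0.010) that was no longer past the test without shNT replicate 1 (adjusted p = 0.091) or with limma on log2(FPKM + 1) (0.053). GINS4 went from 24.3% to 18.2% of the summed GINS level and GINS3 from 21.3% to 27.1%, neither with overlap (exact permutation p = 0.1 each). Of GINS4's exon bases 23.6% overlap other annotated genes.

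All 4 genes of fork protection and coupling fell. CLSPN, the claspin adaptor that carries the checkpoint signal to CHK1, had 3.64, 3.55 and 3.22 FPKM with shNT and 1.96, 1.77 and 1.67 with shPRKCN. Every shPRKCN library lay far below every shNT library (log2 fold change −0.96, SE 0.069, adjusted p = 5.7e-20). WDHD1, the AND-1 protein that ties polymerase α to the helicase, had −0.74. TIMELESS, the fork protection factor, had 19.3, 19.5 and 19.1 FPKM against 13.2, 14.4 and 13.3, a log2 fold change of −0.52 (SE 0.044). Its partner TIPIN had −0.56, and was called without shNT replicate 1 (−0.65). Of TIPIN's exon bases 21.0% overlap another annotated gene.

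Polymerase α-primase, which lays the RNA-DNA primers, fell in all 4 subunits. PRIM1, the catalytic primase subunit, had 16.3, 17.2 and 16.8 FPKM with shNT and 10.1, 9.47 and 11.98 with shPRKCN (log2 fold change −0.70, SE 0.076). PRIM2, the large primase subunit, had 2.79, 3.02 and 3.08 FPKM against 2.26, 2.15 and 2.11 (log2 fold change −0.47, SE 0.076). Both pairs of groups were apart, and the catalytic POLA1 (−0.65) and its partner POLA2 (−0.51) lay between them. The summed level of the 4 subunits was 66.4% of the control, and the shares of POLA1, PRIM1 and PRIM2 in it overlapped between groups. Overlap with other annotated genes covers 21.6% of the exon bases of PRIM1 and 35.1% of those of POLA2.

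The leading and lagging strand polymerases split by subunit. POLD3, an accessory subunit of polymerase δ, had 11.5, 11.1 and 11.1 FPKM with shNT and 7.20, 7.68 and 7.56 with shPRKCN. It was called lower at −0.60 (SE 0.053), and the call was lost without shPRKCN replicate 1 (−0.57). POLD1, the catalytic subunit, had −0.50, and the small subunit POLD4 had −0.24. Of POLD4's exon bases 21.3% overlap another annotated gene. POLD2, the accessory subunit that bridges POLD1 and POLD3, had 47.1, 46.4 and 48.8 FPKM against 43.4, 47.6 and 47.0, overlapping levels with a log2 fold change of −0.06 (SE 0.042, adjusted p = 0.21). POLD2 accordingly rose from 49.6% ± 0.804 to 55.4% ± 1.05 (SD, n = 3 each) of the summed polymerase δ level, without overlap.

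Polymerase ε repeated this split. POLE, its catalytic subunit, fell by 0.40 on the log2 scale (SE 0.051). POLE2, the second subunit, had only 137, 148 and 154 counts with shNT and 102, 99 and 105 with shPRKCN. The groups were apart, but at this depth the log2 fold change of −0.56 has an SE of 0.17 (adjusted p = 0.0042), and it passed the fold limit only when shNT replicate 1 was left out (−0.58). POLE3, a histone-fold subunit shared with a chromatin remodelling complex, had 86.4, 85.1 and 85.4 FPKM against 84.2, 88.1 and 84.8. Its levels overlapped and its log2 fold change of −0.02 (SE 0.036, adjusted p = 0.70) turned to 0.00074 with library-size scaling.

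In shNT cells the sliding clamp was the most abundant of the 58 mRNAs per length. PCNA (chromosome 20, 5114953 to 5126622) had 134, 133 and 136 FPKM with shNT and 79.6, 81.7 and 81.6 with shPRKCN, a log2 fold change of −0.75 (SE 0.038, adjusted p = 1.5e-27). It kept 59.5% of the control level by CPM, and in shPRKCN cells its mean of 81.0 FPKM stood below the 85.7 of POLE3. Counts of PCNA may include reads of its 3 annotated pseudogenes. DBF4, POLD2, RFC3, RFC5 and FEN1 have 1 annotated pseudogene each, with the same limit.

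The clamp loaders all fell. DSCC1, of the alternative loader CTF18-RFC, had 10.2, 9.70 and 10.6 FPKM with shNT and 5.60, 4.42 and 5.42 with shPRKCN (log2 fold change −1.01, SE 0.082). CHTF18, the large subunit of the same loader, had −0.57, and the ratio of CHTF18 to DSCC1 in FPKM went from 1.01 ± 0.0730 to 1.38 ± 0.167 (SD, n = 3 each), without overlap. CHTF18 was called without shNT replicate 1 or shPRKCN replicate 1. RFC1, the large subunit of the main loader, had 19.9, 19.1 and 19.5 FPKM against 14.8, 14.04 and 14.6, the smallest fall of this step (−0.45, SE 0.043). The small subunits RFC2, RFC3, RFC4 and RFC5 had −0.47, −0.62, −0.61 and −0.54. RFC3 was not called without shNT replicate 3 (−0.56), RFC4 was not called without shPRKCN replicate 2 (−0.58), and RFC5 was called without shPRKCN replicate 2. RFC3's low level of 1.79 FPKM rests on a gene length of 11245 bases in the deposited values.

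Lagging strand maturation was the 1 step in which every gene was called lower, against 10.6% of all genes tested. FEN1, the flap endonuclease, had 49.7, 50.6 and 51.6 FPKM with shNT and 27.2, 29.1 and 26.3 with shPRKCN, a log2 fold change of −0.90 (SE 0.046, adjusted p = 2.6e-27). RNASEH2A, the catalytic subunit of the enzyme that removes RNA from primers, had 21.9, 20.3 and 20.9 FPKM against 13.6, 12.7 and 13.4, a log2 fold change of −0.69 (SE 0.072). LIG1, the ligase that seals Okazaki fragments, had −0.79, and the nuclease-helicase DNA2 had −0.78. These 4 changes lay close together, with all libraries of one group below all of the other. Of the exon bases of RNASEH2A 30.8% overlap another annotated gene.

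RPA, which coats single-stranded DNA in replication and in repair, had the smallest median change of the steps at the fork. RPA3, the smallest subunit, had 12.4, 12.2 and 13.5 FPKM with shNT and 9.66, 9.85 and 9.19 with shPRKCN (log2 fold change −0.43, SE 0.069). RPA1, the large subunit that holds most of the DNA contacts, had −0.15 (SE 0.038). RPA2 had 29.6, 28.3 and 30.3 FPKM against 30.6, 31.4 and 31.0, overlapping levels with a log2 fold change of 0.06 (SE 0.048, adjusted p = 0.32). RPA2's share of the summed RPA level went from 41.6% to 46.6% and RPA3's from 18.0% to 14.4%, both without overlap, while the sum itself stayed at 94.2% of the control. RPA2 has 3 annotated pseudogenes.

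At the chromatin behind the fork, CHAF1A, the large subunit of the histone chaperone CAF-1, had 22.7, 22.4 and 22.7 FPKM with shNT and 15.1, 15.2 and 14.6 with shPRKCN. It was called lower (log2 fold change −0.62, SE 0.044). Its partner CHAF1B had −0.47. SLBP, which binds the stem-loop of histone mRNAs, had 62.1, 60.9 and 64.5 FPKM against 49.1, 45.2 and 45.6, a log2 fold change of −0.44 (SE 0.042) that was past the test and not the fold limit.

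Across 8 complexes, 27 of 36 subunits had a share of their complex's summed FPKM that did not overlap between the groups. No such share can pass 0.05 with 3 libraries against 3. Shares within a complex add up to the whole, so a fall in one subunit raises the others and they are not separate observations. Shares were not worked out for other sets of genes, so this count has no background to stand beside. The summed level left in shPRKCN cells was 65.9% for MCM2-7, 66.0% for GINS, 66.4% for polymerase α-primase, 70.0% for RFC, 81.2% for the origin recognition complex, 86.8% for polymerase δ, 94.2% for RPA and 96.4% for polymerase ε (with POLE4). The polymerase ε sum is mostly POLE3 (82.4% of it in shNT), and its groups overlapped (exact permutation p = 0.3). In the origin recognition complex ORC1 went from 22.1% to 14.4% and ORC6 from 25.0% to 20.0%, with ORC2, ORC3, ORC4 and ORC5 all taking larger shares. Over the 58 genes the control level per length and the log2 fold change had a Spearman correlation of 0.11, a description across genes that share the same libraries.

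**Figure D3:**
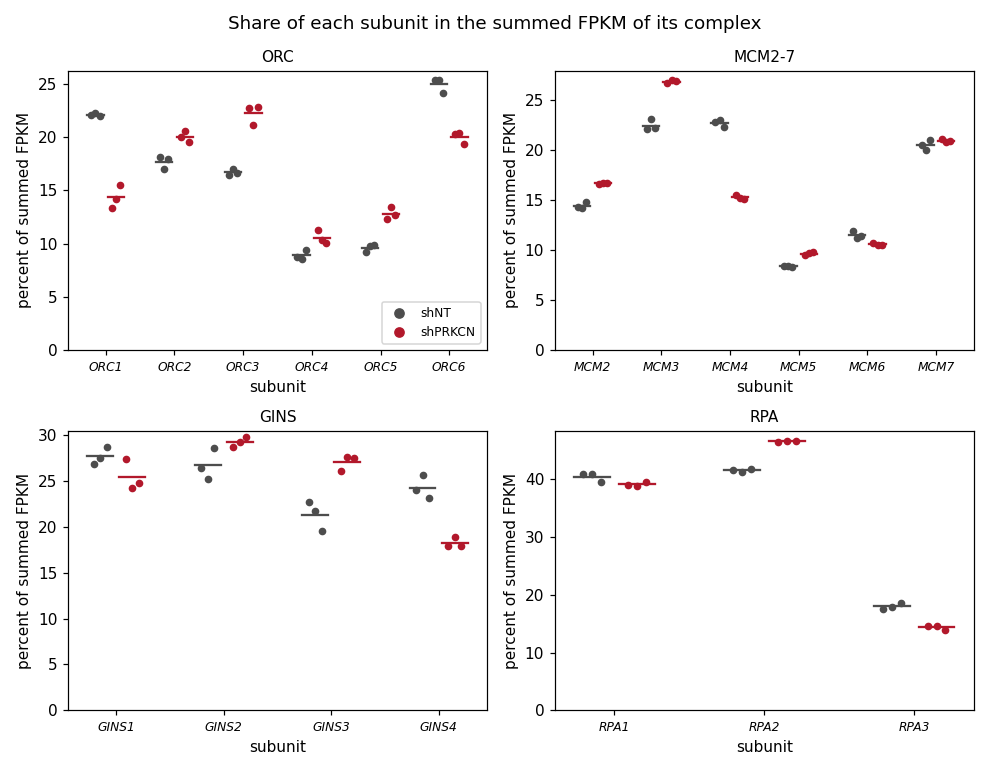
Percent of the summed FPKM of 4 complexes (y axis) taken by each subunit (x axis), with a point per library, a line at the group mean, shNT in grey and shPRKCN in red. ORC1, MCM4, GINS4 and RPA3 take smaller shares in shPRKCN libraries, and ORC3, MCM3, GINS3 and RPA2 take larger ones.

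By step, the E2F-type word stood in the windows of 3 of 3 licensing genes and of 4 of 4 ring genes with a window. It stood in 4 of 8 helicase activation genes, 2 of 4 in fork protection, 2 of 4 in polymerase α-primase, 2 of 3 in polymerase ε, 2 of 7 clamp and loader genes, 1 of 3 in lagging strand maturation and 1 of 6 in the origin recognition complex. None was found for polymerase δ (0 of 3), RPA (0 of 1) or chromatin assembly (0 of 3), which says only that these letters are not in these windows. Among the 49 genes with a window, those with the word had a median log2 fold change of −0.59 (11 of 21 called lower). Those without it had −0.53 (11 of 28 called lower). The genes that have no window, from MCM4 (−1.19) to RPA2 (0.06), are in neither count. Over the 11035 tested genes with a window the median was −0.05 with the word and 0.0058 without it, and 13.4% and 10.3% were called lower. Genes that carry the word spanned the range of the list: ORC3 has it with a log2 fold change of 0.09, MCM3 with −0.36 and CDC6 with −1.21.

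CCAAT, the word read by NF-Y, stood in 29 of the 49 genes with a window (59.2%), against 43.4% of tested genes with a window. Of all windows taken singly, 34.6% held it. Of the 49 replication genes with a window, those with CCAAT had a median of −0.59 (15 of 29 called lower) and those without it −0.50 (7 of 20 called lower). Over tested genes with a window the median was −0.025 with CCAAT and 0.019 without it, and 12.2% and 9.25% were called lower. TTTGAA, the cell cycle homology word of many mitotic promoters, stood in 2 of the 49 genes (4.08%), DBF4 and POLE3. It stood in 13.8% of tested genes with a window, and in 15.2% of all windows taken singly. All words were searched on both strands, and a match is a description of letters, not a binding site.

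The wider replication list held 41 further genes, of which CHTF8 was not in the table and 40 were tested. Of these, 27 were lower at an adjusted p under 0.05 (67.5%, against 27.8% of all genes tested) and 5 were higher (against 26.5%). Of the 40, 11 were called lower (27.5%, against 10.6%), and the median was −0.28. The lowest were ATAD5, which unloads PCNA (−1.19), PCLAF, a PCNA-binding factor (−1.04), and TOP2A, the topoisomerase of late S phase and mitosis (−1.04). The highest were CUL4A, a ubiquitin ligase scaffold (0.51), LRWD1, an ORC-binding protein (0.30), and DDB1, the adaptor that works with CUL4A (0.27). None of the latter passed the fold limit. Beside the median of −0.57 for the replication genes, 40 mitotic genes had −0.87 (38 called lower) and 30 homologous recombination and Fanconi genes had −0.71 (17 called lower), where 10.6% of all genes tested were called. Differences between these lists were not tested.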

How the data were processed

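RNA-seq of 6 MM.1S libraries was used (3 shNT, 3 shPRKCN, grouped by the sample labels). The authors deposited raw counts per gene and FPKM values of the same genes, which follow from the counts, the library totals and 1 length per gene. The submitters' processing notes name FastQC, HISAT2, StringTie and GRCh38.p14. Strandedness is not given in the sources used here. TMM normalization and the quasi-likelihood test of edgeR 4.0.16 (R 4.3.3) were applied to the counts kept by filterByExpr. Benjamini-Hochberg adjusted p-values under 0.05 with absolute log2 fold changes over 0.58, the study's limits, made a call. CPM uses TMM-scaled totals. Alternatives were DESeq2 1.42.0, limma 3.58.1 on log2 FPKM, other scalings, filters and fold limits, and each library left out. Replicates differed beyond sampling noise (chi-square per degree of freedom 3.38 to 4.80 within groups, 63.8 to 70.2 between). The fit was tested on simulated data. Gene positions and promoters come from RefSeq (GRCh38.p14), overlaps from GENCODE 29. Members and lists were chosen with earlier results of these data known. Values in every library are given for the lowest and highest gene of each step, MCM2-7 and PCNA, and for 40 further replication genes the 3 lowest and 3 highest are named. Values for CDT1 and counts for POLE2 were added after the values were seen.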

Additional observations from a re-analysis of the deposited data

How the results depend on the processing

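Of the 28 replication genes called lower, DESeq2, RLE and upper-quartile scaling, both other count filters and the replicate block kept all 28. Without a fold limit 52 were lower, and 3877 genes lower and 3700 higher in all. Under glmTreat 17 were called, with 821 genes lower (5.88% of those tested) and 339 higher. Under limma on log2(FPKM + 1) 18 were called, with 648 genes lower (2.97% of those tested) and 315 higher. For genes at 1 FPKM or more in 3 libraries it called 635 lower (6.03% of those tested) and 310 higher, again with 18 replication genes. The pseudocount of 1, filtered or not, lost 10 of the 28 calls, that of 0.1 lost MCM7, POLD3 and RFC3, and library-size scaling lost MCM7. The pseudocount shrinks folds of low genes by construction: the median of the 58 genes was −0.46 with and without that filter, −0.53 with a pseudocount of 0.1 and −0.55 with library-size scaling. With a pseudocount of 1, filtered or not, step medians were −0.76 for licensing, −0.47 for MCM2-7, −0.59 for helicase activation, −0.46 for fork protection, −0.48 for polymerase α-primase, −0.33 for polymerase δ, −0.32 for polymerase ε, −0.46 for the clamp and loaders, −0.68 for lagging strand maturation and −0.42 for chromatin assembly. With a pseudocount of 0.1 they were −0.72 for helicase activation, −0.60 for fork protection, −0.35 for polymerase δ, −0.55 for the clamp and loaders, −0.75 for lagging strand maturation and −0.44 for chromatin assembly. Library-size scaling gave −0.35 for polymerase δ and −0.45 for chromatin assembly. POLE3, near 0 throughout, turned to 0.00074 with library-size scaling, 0.00047 and 0.00048 with limma at pseudocounts of 1 (filtered or not) and 0.1, and ran from −0.047 to 0.0013 with 1 library left out. The cause was not tested.

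With 1 library left out, 26 to 31 of the 58 replication genes were called lower, against 10.1% to 10.4% of all genes tested. The median of the 58 ran from −0.59 to −0.56. Step medians ran from −0.69 to −0.61 for fork protection, −0.40 to −0.35 for polymerase δ, −0.78 to −0.70 for helicase activation and −0.44 to −0.36 for polymerase ε. Same-numbered libraries did not deviate together (correlations of −0.042, −0.013 and 0.0038), so the numbers were not taken as pairs. The replicate block called 28 replication genes lower, with 1463 genes lower (10.5% of those tested) and 854 higher in all. No scaling moved the median of all genes by more than 0.1. Depth limits POLE2, at 99 to 154 counts, more than any other of the 58 genes.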
